A study of Mus musculus with 3 samples.

Results

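Transcripts of 9 effector cytokine genes were followed through thymus cultures: Il22, Il17a, Il17f, Il13, Il4, Il5, Csf2, Areg and Ifng. They were chosen by name, as cytokines that innate lymphoid cells secrete, and are 9 of the 32285 genes in the expression matrix. Their raw counts of unique molecular identifiers (UMIs, each standing for 1 captured transcript) were read in innate lymphoid-like cells, γδ-like T cells and cells with a rearranged T cell receptor β (TRB) chain, and then in all other cells as background.

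The cells came from wild-type (WT) mouse thymus cultures without treatment on culture day 13, and 1 lane of droplet-based single-cell sequencing held 2 pools that were told apart by hashtag antibodies. The ORFTOC pool (HTO_2) came from reaggregates of thymic epithelial cells that had been expanded as organoids from E16.5 thymi, mixed with EpCAM-depleted cells of E13.5 thymi and with mouse embryonic fibroblasts. The FTOC pool (HTO_1) came from intact thymic lobes of E13.5 embryos. In each pool 2 cultures were mixed before labelling, so there are no replicates, no p-value is given, and every interval below (95%) covers counting error only. The lymphoid cells of both pools came with the E13.5 thymus cells, and the reaggregates also contained added fibroblasts. The pools also differed in the sex of their embryos. Of the 4144 FTOC cells kept, 8 held transcripts of Y-linked genes without Xist, the transcript of the inactive X chromosome, and 3227 held Xist without Y-linked transcripts, against 1536 and 1503 of the 4248 ORFTOC cells. In every ratio between the pools the culture and this difference in sex cannot be told apart, so the main ratios are also given for Xist cells, those with Xist and without Y-linked transcripts.

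Innate lymphoid cells (ILCs) lack rearranged antigen receptors and answer to cytokines and alarmins from epithelium, stroma and myeloid cells. They fall into groups that mirror helper T cells: group 1 makes interferon γ under T-bet, group 2 makes IL-13, IL-5, amphiregulin and some IL-4 under GATA3, and group 3 makes IL-22 and IL-17. The fetal thymus is known to produce such innate cells early, together with γδ T cells that acquire an IL-17 programme before birth, and IL-22 and lymphotoxins from thymic ILCs act on thymic epithelium.

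After filtering, 8392 cells remained, 4248 from ORFTOC (median 8053 UMIs per cell) and 4144 from FTOC (4952). Immune cells numbered 5934, with medians of 5321 UMIs in the 2805 ORFTOC cells and 2483 in the 3129 FTOC cells. A filtered TCR contig shared its barcode with 3911 of the kept cells. Classes were named from marker genes after clustering without the 9 cytokine genes. The ILC3-like class joined immune clusters 3 and 17 and held 575 cells, with Lta at 891.2 CPM (the summed UMIs of a gene, scaled to the summed UMIs of the same cells), Il23r at 143.7 and Cd3e at 33.3. The ILC2-like class was immune cluster 8, with 254 cells, Gata3 at 513.3 CPM, Il1rl1 (the IL-33 receptor) at 123.3 and Il17rb at 114.7, but Klrg1 at 12.7 and Ptgdr2 at 0. Its 10 leading genes held no listed ILC2 marker and Cd69 of another list, and it carried Cd3g at 753.2 CPM and Tcrg-C1 at 649.9, so it is compared as a cluster rather than as a cell type. The γδ-like class was immune cluster 11, with 181 cells, Cd163l1 at 1153 CPM and Trdc at 313.9. Immune cluster 7 (328 cells, led by Gzmc, Xcl1 and Cd7) carried natural killer genes together with Cd3g at 961.6 CPM, was left without a cell type name and is called the Xcl1 cluster. As background, 1988 double-positive (DP)-like thymocytes (median 1622 UMIs) and 2191 epithelial cells (median 12743 UMIs) were read in the same way. For Csf2, Il13 and Areg the epithelial cells were not an empty background, as given below.

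Of the 9 genes, 8 share a chromosome with another member. Il17a (chr1:20730905-20734496) and Il17f (chr1:20777146-20785274) lay 42.6 kb apart. Il4 (chr11:53612460-53618665) and Il13 (chr11:53631323-53634702) lay 12.7 kb apart. Il5 (chr11:53720794-53725103) lay 86.1 kb from Il13, and Csf2 (chr11:54247270-54249899) lay 522.2 kb beyond Il5. Il22 (chr10:118204584-118210047) and Ifng (chr10:118441046-118445894) lay 231.0 kb apart, and Areg was on chromosome 5 (chr5:91139599-91148432). The stretches just before the annotated starts are printed for 4 genes that the results turn on, from RefSeq on build GRCm38.p6, 5′ to 3′ on the gene's strand. Capitals mark the letters TATAAA, which 6 of the 9 genes (Il22, Il17a, Il17f, Il13, Areg and Ifng) held on the gene's strand within 300 bases around the start, against 8.32% of the 32851 windows of that length. The motif began 29 to 31 bases before the start in 5 of these genes and 170 bases before it in Il22. For Il17f and Il22, where a longer annotated transcript covers the window, 30 bases are shown.
Il17a (chr1:20730805-20730904, + strand): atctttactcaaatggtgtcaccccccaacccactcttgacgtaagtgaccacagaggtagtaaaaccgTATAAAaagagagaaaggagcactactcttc
Il17f (chr1:20784282-20784311, - strand): gacagtgattgcTATAAAactgacaggtac
Il13 (chr11:53634703-53634802, - strand): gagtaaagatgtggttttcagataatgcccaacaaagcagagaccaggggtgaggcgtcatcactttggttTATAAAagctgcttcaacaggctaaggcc
Il22 (chr10:118204782-118204811, + strand): tgtcccgatggcTATAAAagcagcaacttc
The letters GATAA, searched on both strands, were in 25.4% of windows and in those of Il22, Il13, Il4 and Csf2. AGGTCA, also on both strands, was in 16.3% of windows and in those of Il17a, Il17f and Ifng. These matches describe letters and not bound sites.

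Each of the 9 genes was held by few cells. Any of them was detected in 636 of 5934 immune cells, and 566 cells had a UMI of a type 1 (Ifng), type 2 (Il13, Il4 or Il5) or type 3 (Il22, Il17a or Il17f) cytokine. Il22 had 1780 immune UMIs in 244 cells, Il13 had 1662 in 168 cells and Il17a had 432 in 42 cells. Within the positive cells the counts were very uneven. The median positive cell held 4 Il22 UMIs and the highest held 124. For Il17a the median was 3 and the highest 101, and the 10 richest cells held 80.8% of all Il17a UMIs. For Il22 and Il13 the 10 richest cells held 21.9% and 24.8%. By contrast, 69.4% of the 36 Ifng-positive cells and 54.6% of the 163 Il4-positive cells held a single UMI. In barcodes with 1 to 100 UMIs, which hold free RNA from broken cells, Il22 stood at 8.54 CPM and Il13 at 10 CPM, and such ambient RNA made up 5.48% of epithelial UMIs.

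**Figure D1:**
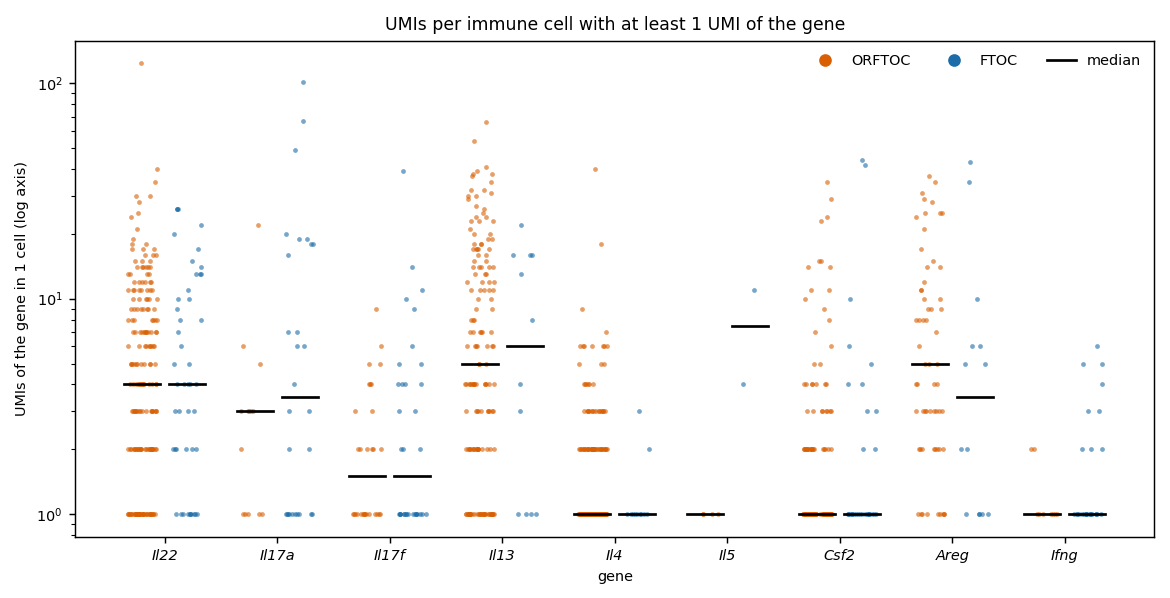
UMIs of each cytokine gene in every immune cell with at least 1 UMI of it, on a log axis, for ORFTOC and FTOC cells. Points are cells and bars are medians; Il22 reached 124 UMIs and Il17a 101 UMIs in a cell, while Ifng did not exceed 6.

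Il22, Il17a and Il13 each sat mostly in a single class, while Il17f was split between γδ-like and ILC3-like cells and Ifng was more spread. The ILC3-like cells, 9.69% of immune cells, held 92.9% of the immune Il22 UMIs (91.6 to 94.1). The γδ-like cells, 3.05% of immune cells, held 91.9% of the Il17a UMIs (88.9 to 94.3). The ILC2-like cells, 4.28% of immune cells, held 94.8% of the Il13 UMIs (93.6 to 95.8). The Xcl1 cluster held 37 of the 61 Ifng UMIs, or 60.7% (47.3 to 72.9). The other Ifng UMIs were 13 in 9 cycling thymocyte-like cells, 6 in 1 mature single-positive-like cell and 5 in 4 cells of immune cluster 4. When TCR chains and a few marker UMIs set the classes in place of clusters, the share was 84.7% for Il22, 52.0% for Il13, 57.2% for Il17a and 4.92% for Ifng. That gate for ILCs required an Il7r or Ncr1 UMI and no Cd3e UMI, and 889 immune cells met no gate. It did not separate ILC2-like from ILC3-like cells and held 1507 Il22 and 865 Il13 UMIs.

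**Figure D2:**
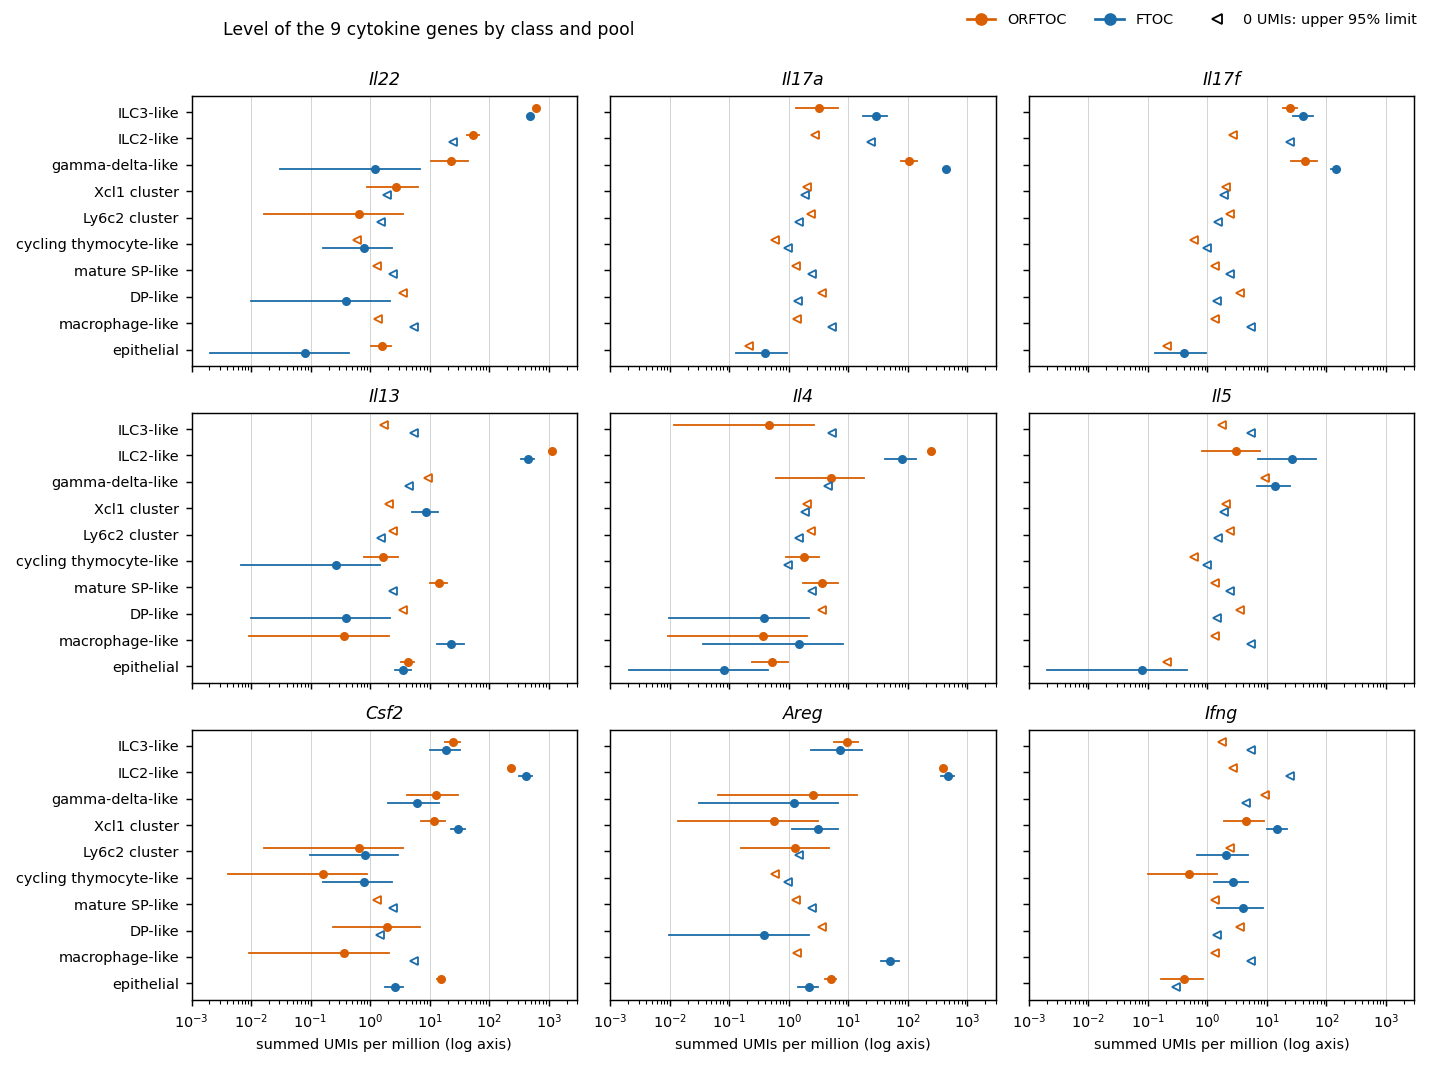
Summed level of each of the 9 cytokine genes in 10 populations, in CPM on a log axis, for the ORFTOC and FTOC pools. Points carry exact 95% Poisson intervals and open triangles give the upper limit where no UMI was found; Il22 peaked in ILC3-like cells, Il17a in γδ-like cells and Il13 in ILC2-like cells in both pools.

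Il22 codes for interleukin-22, which acts on epithelial cells. In ILC3-like cells a UMI was found in 181 of 453 cells from ORFTOC (40.0%, 35.4 to 44.6) versus 42 of 122 from FTOC (34.4%, 26.1 to 43.6). With cells thinned to 1000 UMIs the shares were 24.3% and 23%. The summed ORFTOC level of 618.3 CPM (585.4 to 652.5) was above the FTOC level of 483.2 (432.6 to 538.0), a ratio of 1.28 (1.13 to 1.45). This difference depended on which cells were counted and how. The log2 ratio of 0.36 was 0.16 with every cell at equal weight and 0.68 between Xist cells. With the ILC gate it was -0.02 (-0.22 to 0.18), but this gate also takes in ILC2-like cells and does not stand for the class. As background, 1 of 1988 DP-like cells (0.0503%) and 7 of 2191 epithelial cells (0.319%) held an Il22 UMI. Outside the ILC3-like class, 7 ILC2-like cells held 73 Il22 UMIs, with 35 in the highest, and γδ-like cells held 10 UMIs in 5 cells. Immune cluster 13, led by Pth, Chga and Mt3 and left without a class name, held 33 UMIs in 5 cells, with 16 in the highest. Over all immune cells the ratio of Il22 between the pools was 3.24, and ILC3-like cells were 453 of 2805 immune cells in ORFTOC and 122 of 3129 in FTOC. The larger Il22 total in ORFTOC thus came with more ILC3-like cells. The level within the class differed less, with the ratio of 1.28, or 1.6 (1.38 to 1.85) between Xist cells.

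Il17a and Il17f code for interleukin-17A and interleukin-17F, which can pair into a heterodimer and draw neutrophils through epithelial and stromal responses. Among γδ-like cells 10 of 65 from ORFTOC held Il17a (15.4%, 7.63 to 26.5) versus 24 of 116 from FTOC (20.7%, 13.7 to 29.2). The summed level was lower in ORFTOC, with 106.7 CPM (76.9 to 144.2) against 434.6 (390.5 to 482.2), a ratio of 0.245 (0.174 to 0.339). The intervals of the shares overlapped, and with cells thinned to 1000 UMIs the shares were 6.15% and 13.8%. One FTOC cell held 101 of the 355 FTOC UMIs, and without it the log2 ratio of -2.03 was -1.57 (-2.08 to -1.09). A single ORFTOC cell held 22 of the 42 ORFTOC UMIs, and without it the log2 ratio was -3.08. Il17f differed in the same direction, from 142.0 CPM (117.3 to 170.3) in FTOC to 43.2 (25.2 to 69.1) in ORFTOC, a ratio of 0.304 (0.171 to 0.508). In the γδ-like cells without a TRB chain the ratios were 0.309 (0.217 to 0.429) for Il17a and 0.496 (0.272 to 0.857) for Il17f.

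Il17f was less restricted than Il17a. ILC3-like cells held 81 of the 214 immune Il17f UMIs in 38 cells, and γδ-like cells held 133 in 26 cells. Its ILC3-like level of 24.8 CPM for ORFTOC was below the 40.7 for FTOC, a ratio of 0.608 (0.378 to 0.999). Il17a was rare there, with 7 UMIs in 3 ORFTOC cells and 20 UMIs in 2 FTOC cells, of which 1 cell held 19. Without that cell the ratio of 0.112 was 0.741 (0.169 to 4.44). No Il17a or Il17f UMI was found in ILC2-like cells, the Xcl1 cluster or DP-like cells. For the 1988 DP-like cells a count of 0 allows a share of up to 0.151% with a UMI, which limits detection and not the share of cells that express the gene.

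Il13 and Il4 code for the type 2 cytokines interleukin-13 and interleukin-4, which share a receptor chain. Among ILC2-like cells 150 of 235 from ORFTOC held Il13 (63.8%, 57.3 to 70.0) versus 7 of 19 from FTOC (36.8%, 16.3 to 61.6). The ORFTOC level reached 1119 CPM (1063 to 1177) against 441.7 (342.3 to 561.0) for FTOC, a ratio of 2.53 (1.98 to 3.29). The FTOC value rested on 67 UMIs, of which 1 cell held 22, and without that cell the log2 ratio of 1.34 was 1.85. With the ILC gate it was 4.11, but this gate also takes in ILC3-like cells and does not stand for the cluster. For Il4 the ORFTOC level was 244.7 CPM (219.0 to 272.6, 142 cells) against 79.1 (40.9 to 138.2, 9 cells) for FTOC, a ratio of 3.09 (1.75 to 6.05). Il4 was held by 60.4% of the ORFTOC cells (53.9 to 66.7) and 47.4% of the FTOC cells (24.4 to 71.1). For both genes the intervals of the shares overlapped. With cells thinned to equal depth the shares were 35.9% and 21.1% for Il13 and 19.7% and 15.8% for Il4. The summed levels of both type 2 genes were thus higher in ORFTOC, also without the richest cell of either pool. They rest on 7 and 9 positive cells among only 19 FTOC cells, and no difference in the share of positive cells is read. DP-like cells held each gene in 1 of 1988 cells (0.0503%).

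Il5, which codes for the eosinophil growth factor interleukin-5, was nearly absent. It had 19 immune UMIs in 6 cells, of which 5 were ILC2-like and 1 was a γδ-like FTOC cell with 11 UMIs. In ILC2-like cells 4 UMIs came from 4 ORFTOC cells and 4 from 1 FTOC cell. All 5 ILC2-like cells with Il5 also held Il4, and 4 of them held Il13. Il5 was in 1 of 2191 epithelial cells and in none of the DP-like cells, and no difference between the pools could be read at this depth.

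Csf2, which codes for the myeloid growth factor GM-CSF, and Areg, which codes for the epidermal growth factor receptor ligand amphiregulin, went with Il13 in the same cluster. In ILC2-like cells the Csf2 level was 229.9 CPM for ORFTOC (205.0 to 257.0, 69 of 235 cells) against 415.4 for FTOC (319.2 to 531.4, 8 of 19 cells), a ratio of 0.553 (0.421 to 0.738). One FTOC cell held 44 of the 63 FTOC UMIs, and without it the FTOC level was 132.1 CPM and the ratio 1.74 (1.1 to 2.93), so that the direction turned. With cells thinned to 1000 UMIs Csf2 was in 29 of 234 ORFTOC and 2 of 19 FTOC cells. For Areg the levels were 389.3 CPM (52 cells) and 468.1 CPM (6 cells), a ratio of 0.832 (0.648 to 1.08) with an interval that held 1. Without the FTOC cell that held 43 of its 71 FTOC UMIs, the Areg ratio was 2.0 (1.37 to 3.04). Both ratios thus moved from below 1 to above 1 without 1 FTOC cell. With this and only 8 and 6 positive FTOC cells, no direction between the pools is read for Csf2 or Areg.

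The ILC2-like cluster held 69.2% of the immune Csf2 UMIs (65.1 to 73.1), and Csf2 also reached other lymphoid classes. It was found in 28 of 575 ILC3-like cells, 23 of 328 cells of the Xcl1 cluster and 7 of 181 γδ-like cells. In the Xcl1 cluster its ratio was 0.385 (0.222 to 0.644), with 42 of the 59 FTOC UMIs in 1 cell, and without that cell it was 1.33 (0.666 to 2.68). Areg was in 7 ILC3-like cells and in 1 FTOC macrophage-like cell with 35 UMIs. DP-like cells held Csf2 in 2 cells and Areg in 1 cell.

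Ifng, which codes for interferon γ, was the scarcest member after Il5. In the Xcl1 cluster 6 of 166 cells from ORFTOC held it (3.61%, 1.34 to 7.70) versus 16 of 162 from FTOC (9.88%, 5.75 to 15.5), at similar depths (medians of 10493 and 11250 UMIs). The ORFTOC level of 4.44 CPM (1.92 to 8.75) lay below the FTOC level of 14.9 (9.95 to 21.3), a ratio of 0.299 (0.118 to 0.67). The ratio was 0.145 (0.0278 to 0.479) in cells of the cluster without a TRB chain and 0.858 (0.207 to 3.37) in the 86 TRB-positive ones, on 11 UMIs. No Ifng UMI was found in ILC3-like, ILC2-like or γδ-like cells, nor in DP-like cells, and 4 of 2191 epithelial cells (0.183%) held it. With cells thinned to 1000 UMIs the shares of the Xcl1 cluster were 0.602% and 1.85%, near the level of a single UMI, and no change can be read from them. No class was named as group 1 ILCs. The Xcl1 cluster scored highest for natural killer or ILC1 markers, with 8 of 9 detected. Its mean CD3 level of 817.0 CPM was above the limit of 300 CPM, which was set after the clusters had been seen. That limit applied to natural killer names only, and the ILC2-like cluster had 310.2 CPM. In 238 of the 328 cells of the Xcl1 cluster no TRB chain was found. Sums over the cluster cannot show whether group 1 ILCs were among them.

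The members were read against all genes in the same classes. A gene was counted as higher or lower when it had at least 10 UMIs over both pools and differed at least 2-fold. In ILC2-like cells 5 members were tested and 3 were higher in ORFTOC (Il13, Il4, and Il22, which was at 0 in FTOC), where 4.71% of 8470 genes were higher and 14.7% lower. In γδ-like cells Il17a and Il17f were lower in ORFTOC and 2 of the 5 tested were higher on 10 UMIs each (Il22 and Csf2), where 6.78% of genes were lower and 4.91% higher. In the Xcl1 cluster all 3 tested (Ifng, Csf2 and Il13) were lower, against 3.68% of 9846 genes lower and 2.94% higher. Of these, Csf2 turned direction without 1 FTOC cell, as given above, and Il13 had 17 UMIs in 2 FTOC cells, 16 of them in 1. In ILC3-like cells 1 of 5 was lower (Il17a, with 19 of 20 FTOC UMIs in 1 cell), against 3.57% of genes lower and 3.10% higher. Low counts entered these shares: at a minimum of 50 UMIs the percentage of genes called in ILC2-like cells was 10.1% higher and 1.74% lower.

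Between the Xist cells of both pools the ratio was 1.6 (1.38 to 1.85) for Il22 in ILC3-like cells, 2.97 (2.27 to 3.95) for Il13 in ILC2-like cells and 0.19 (0.0941 to 0.345) for Il17a in γδ-like cells. For Ifng in the Xcl1 cluster it was 0.644 (0.215 to 1.62), an interval that held 1. Within ORFTOC, Il13 in ILC2-like cells was 1274 CPM in the 91 cells with Y-linked transcripts only and 1230 in the 79 Xist cells, and Il22 in ILC3-like cells was 620.7 and 666.6. Other members were further apart across this split. Csf2 in ILC2-like cells was 286 and 146.4 CPM, and Areg was 494 and 337.3. Il22 in ILC2-like cells was 1.86 and 118.8 CPM, with 56 UMIs in 2 of the Xist cells. Il17a in γδ-like cells was 188.7 CPM (125.4 to 272.7, 26 cells) and 86.5 (43.2 to 154.8, 20 cells).

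**Figure D3:**
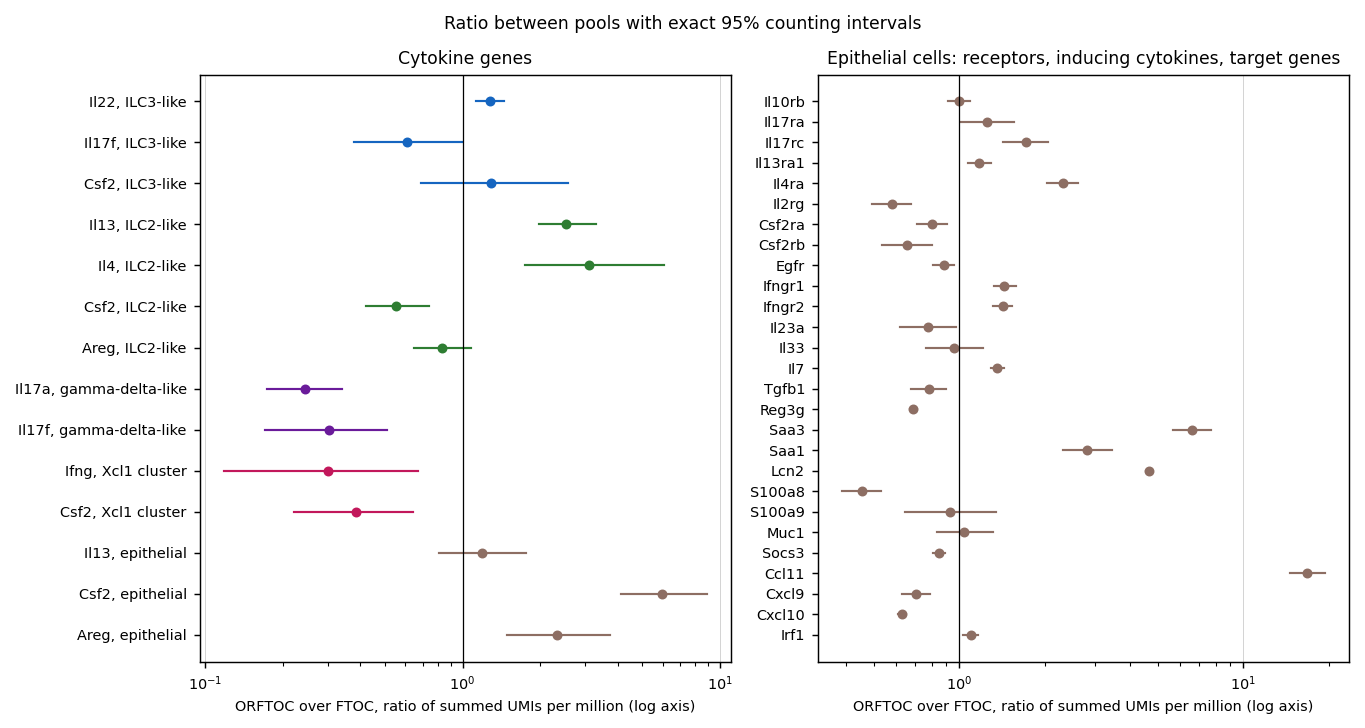
Ratio of the summed level in ORFTOC over FTOC, on a log axis with exact 95% counting intervals, for cytokine genes within their classes (left) and for genes of their receptors, inducers and targets in epithelial cells with at least 100 UMIs (right). Il13 and Il4 lay above 1 in ILC2-like cells, Il17a and Il17f below 1 in γδ-like cells, and Ccl11 was the highest of the epithelial genes at 16.8.

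Few cells held cytokines of more than 1 type. Of the 566 cells with a type 1, 2 or 3 cytokine, 8 (1.41%) held more than 1 type. All 8 were ORFTOC cells and combined types 2 and 3, and 7 of them were ILC2-like cells with Il22. The clearest held 35 Il22, 18 Il13, 5 Il4 and 8 Csf2 UMIs among 8337 UMIs, and another held 21 Il22 and 8 Il13 UMIs. These 7 cells had a median of 8337 UMIs, against 5790 in the cluster. Whether they were doublets was not tested beyond the removal of cells near doublets between pools. No cell held Ifng together with a type 2 or type 3 cytokine, and 0 of the 168 Il13-positive cells held Il17a or Il17f (upper limit 1.79% of cells with a UMI). Over all 5934 immune cells, 0.708% held Il17a, 1.08% held Il17f and 0.607% held Ifng. The limit lies above the shares of Il17a and Il17f, and no exclusion between the types is read from these counts of 0.

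**Figure D4:**
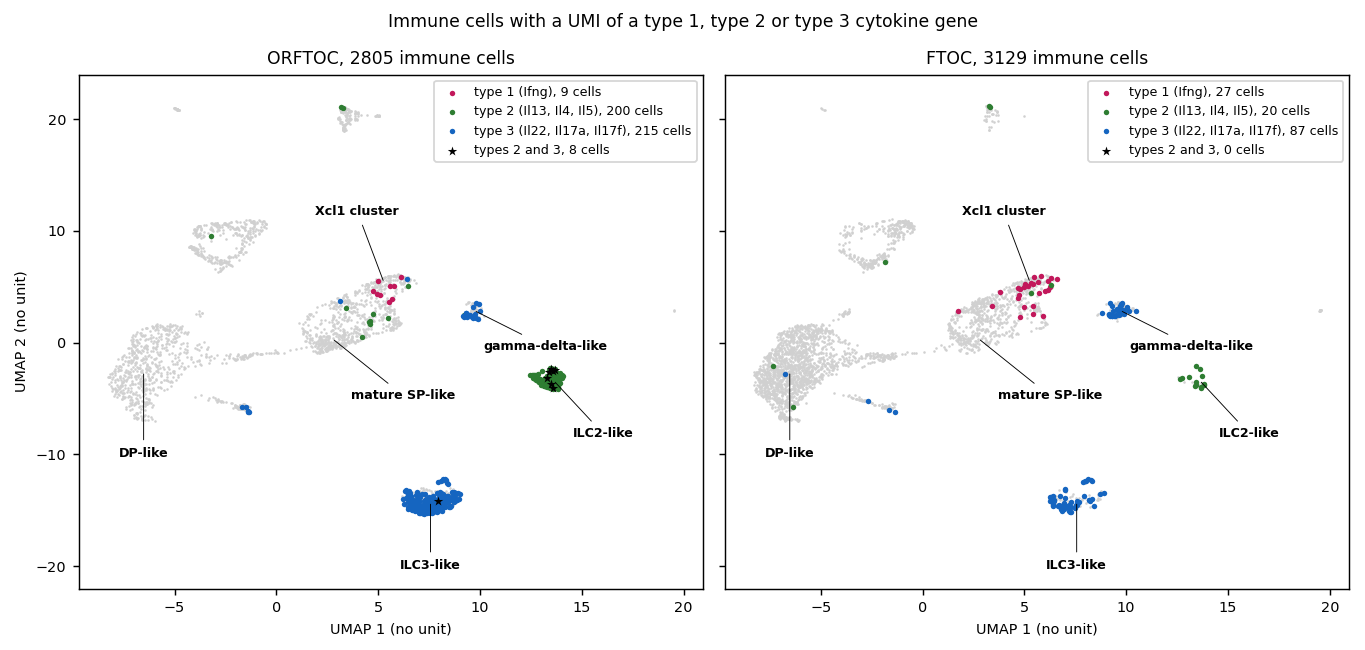
Map of the immune cells (UMAP computed without the 9 cytokine genes, axes without unit) for ORFTOC and FTOC, with cells coloured by the type of cytokine UMI they held and cells without any in grey. Of the type 2 cells 200 lay in the ILC2-like island, of the type 3 cells 242 in the ILC3-like and 48 in the γδ-like island, and the 8 cells with types 2 and 3 were all in ORFTOC.

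Within a type, co-detection differed from pair to pair. In γδ-like cells 16 of the 26 Il17f-positive cells also held Il17a (61.5%, 40.6 to 79.8), against 18 of 155 Il17f-negative cells (11.6%, 7.03 to 17.7). The richest cell for Il17f held 67 Il17a and 39 Il17f UMIs. At 1000 UMIs per cell the shares were 38.5% and 8.93%. In ILC3-like cells the 2 genes parted: of 38 Il17f-positive cells 2 held Il17a and 21 held Il22 (55.3%, 38.3 to 71.4), against Il22 in 37.6% of Il17f-negative cells (33.5 to 41.9). Il17a and Il22 were found together in 1 of the 42 immune cells with Il17a.

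Il13 and Il4, although neighbours on the chromosome, overlapped little more than their separate shares give inside the ILC2-like cluster. Both were found in 101 cells, where the product of their shares gives 93.3 cells, and 64.3% of the 157 Il13-positive cells held Il4 (56.3 to 71.8) against 51.5% of the 97 Il13-negative cells (41.2 to 61.8). Csf2 was found more often in cells with Il13 than its separate share gives. Of the 77 Csf2-positive cells 62 held Il13 (80.5%, 69.9 to 88.7), against 53.7% of Csf2-negative cells (46.0 to 61.2), while Il4 was in 58.4% and 59.9%. Areg-positive cells held Il13 in 43 of 58 cells (74.1%, 61.0 to 84.7), against 58.2% of the others. Positive cells were somewhat deeper (medians of 6413 UMIs for Csf2 and 6186 for Areg, against 5790 in the cluster), and the part of depth in these shares was not tested beyond thinning. At 1000 UMIs per cell Il13 was in 48.4% of Csf2-positive and 32.9% of Csf2-negative cells. Counted per cell, 225 of the 254 ILC2-like cells held at least 1 of the 9 members and 67 held 3 or more. In ILC3-like cells 317 of 575 held none.

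**Figure D5:**
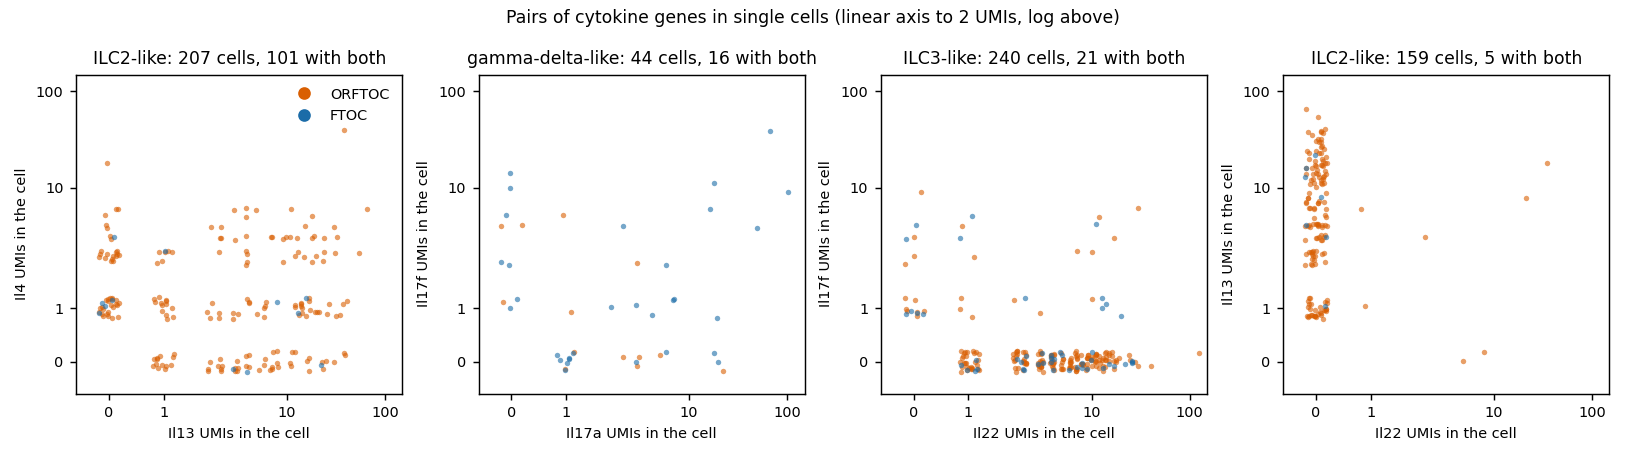
UMIs of pairs of cytokine genes in single cells of a class, with points as cells of the ORFTOC or FTOC pool spread slightly around whole UMIs and axes linear to 2 UMIs and logarithmic above. Il13 and Il4 were found together in 101 ILC2-like cells, Il17a and Il17f in 16 γδ-like cells, Il22 and Il17f in 21 ILC3-like cells, and Il22 and Il13 in 5 ILC2-like cells.

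Across 30 combinations of immune cluster and pool, the genes whose levels ran most like a member's were named by Pearson's r. Clusters of 1 pool share libraries and depth, so r is a description only. For Il22 they were Cntn1 (r = 0.973), Rasl11a (0.973) and Chad (0.966). For Il17a they were Il17f (0.919) and Blk (0.917), a Src-family kinase of IL-17-producing γδ T cells. For Il13 they were Il4 (0.956), Mcpt8 (0.944) and Nmur1 (0.943), which codes for the neuromedin U receptor of ILC2s. Il17f was most like Il17a and then Rbpms2 (0.916), and Il4 was most like Rxrg (0.979) and Mcpt8 (0.978). For Csf2 they were Rgs18 (0.901) and Il2 (0.899), and for Areg they were Bmp2 (0.943) and Ptgs2 (0.941), which codes for cyclooxygenase 2.

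Cells with and without a member's UMI were then compared inside a class for transcription factors and receptors. Because several cells with many UMIs set these sums, the values describe these cells. The genes named here and in the next paragraph are examples, from lists that include 14 transcription factors and 11 inducer receptors. They were read across several members and classes. Among so many comparisons some intervals that leave out 1 arise by counting error, and the share over all genes is not given. In γδ-like cells with Il17a, Blk stood at 337.2 CPM against 155.3 in cells without (ratio 2.17, 1.65 to 2.84). Maf, a factor needed for IL-17 γδ T cells, had a ratio of 1.32 (1.09 to 1.60). Il7r had a ratio of 0.677 (0.556 to 0.819) and Tcf7, a factor of early T cell stages, one of 0.682 (0.496 to 0.924). In ILC3-like cells with Il22, Runx3 had a ratio of 1.18 (1.01 to 1.38), Batf one of 0.679 (0.552 to 0.831) and Gata3 one of 0.694 (0.507 to 0.941).

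ILC3-like cells with Il17f carried more Tcrg-C1, at 512.7 CPM against 202.5 (ratio 2.53, 2.05 to 3.11). Reads of the constant genes of the γ locus can be split between near-identical copies. They also carried less Il7r (0.649) and less Il18r1 (0.463, 0.288 to 0.708). In ILC2-like cells with Il13, Mcpt8 had a ratio of 2.88 (1.79 to 4.83), Nfil3 one of 1.55 (1.02 to 2.41) and Il1rl1 one of 0.693 (0.513 to 0.938). Mcpt8 codes for a protease of basophils, but the mast cell and basophil genes Cpa3 and Ms4a2 were at 0 in the cluster. ILC2-like cells with Areg had less Tcf7 (0.353, 0.155 to 0.705). In the Xcl1 cluster, cells with Ifng had more Eomes (2.54, 1.09 to 5.27), a factor of natural killer cells, and cells with Csf2 had more Il2ra (5.28, 3.28 to 8.34), the high-affinity IL-2 receptor chain.

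TRB chains marked cells that had rearranged their β locus. Of 3652 immune cells with 1 productive TRB chain, 56 held any member (1.53%), against 577 of 2147 cells without a TRB chain (26.9%). Ifng was found in 17 of the TRB-positive cells (0.465%, 0.271 to 0.744), Il13 and Il4 in 13 each (0.356%), and Csf2 in 12. Il22, Il17a and Il17f were found in 7 each (0.192%, 0.0771 to 0.395). Il5 was found in none, which allows a share of up to 0.0821% of cells with a UMI. Epithelial cells, at a median of 12743 UMIs against 2491, held Il13 in 1.28%, Csf2 in 1.51% and Il22 in 0.319% of cells, above the TRB-positive shares, and Ifng in 0.183% (0.0498 to 0.467), Il4 in 0.183% and Il17a in 0.0456% (0.00116 to 0.254), below them, with intervals that overlapped those of the TRB-positive cells. For Il13 and Csf2 the epithelial cells were not an empty background, with 119 and 297 UMIs where the ambient profile predicted 16.4 and 7.66. The depths also differed, so this comparison cannot decide whether TRB-positive cells express the genes. No expression is read from these shares alone. The UMIs were uneven within them: 4 of the 7 TRB-positive cells with Il22 were ILC3-like and held 24 of the 29 UMIs, with 11 and 10 in the highest, where the ambient profile predicted 0.0575 UMIs for the 15 TRB-positive ILC3-like cells. All 7 TRB-positive cells with Il17a were from FTOC, 6 were γδ-like, and the cell with 67 Il17a and 39 Il17f UMIs was among them. Exactly 1 TRB chain was found in 31 of 181 γδ-like cells, and 146 had none. Whether the TRB contigs of γδ-like cells came from the same cell or from free RNA was not tested.

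Type 2 cytokines in TRB-positive cells included cells with an invariant receptor. Natural killer T (NKT) cells carry a TRAV11-TRAJ18 α chain and recognise lipids on CD1d, and a thymic subset of them makes IL-4 and IL-13. Such a chain was found in 6 immune cells, 5 from ORFTOC and 1 from FTOC. Of these, 3 held Il13 or Il4 (50%, 11.8 to 88.2), against 16 of 3647 other cells with 1 TRB chain (0.439%, 0.251 to 0.711). A first held 10 Il13 and 9 Il4 UMIs, another held 4 and 2, and the last held 1 Il4 UMI. These 3 were the deepest of the 6 cells, with 24476 to 29593 UMIs each. All 6 cells held at least 13992 UMIs, against a median of 2491 in the 3652 immune cells with 1 TRB chain. The part of depth in this contrast was not tested. The cell with 1 Il4 UMI held 2 TRB chains, unlike the cells it is compared with. The α junctions are shown because their near identity across cells defines this receptor. They are read from the contigs, 45 bases long from the conserved cysteine codon, and the capital marks position 12, where the 3 versions differed.
Junction 1, in 1 cell with 10 Il13 and 9 Il4 UMIs: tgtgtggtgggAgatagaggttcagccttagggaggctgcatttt
Junction 2, in 3 cells, of which 1 had an Il4 UMI: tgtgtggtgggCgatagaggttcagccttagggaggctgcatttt
Junction 3, in 2 cells, of which 1 had 4 Il13 and 2 Il4 UMIs: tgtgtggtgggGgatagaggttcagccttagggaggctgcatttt
The β chains of the 6 cells used TRBV29, TRBV13-1, TRBV13-3, TRBV1 in 2 cells, and both TRBV26 and TRBV12-2+TRBV13-2 in the cell with 2 TRB chains. The TRBV1-TRBJ1-1 chain of the cell with 10 Il13 UMIs was found in 2 immune cells. The other held a TRAV9N-3-TRAJ23 chain and 1 Ifng UMI, without Il13 or Il4. The TRBV1-TRBJ2-7 chain of the cell with 4 Il13 UMIs was also found in 2 immune cells, and the other held 29 Il13 and 7 Il4 UMIs without an assembled TRAV11-TRAJ18 chain. Both were mature single-positive-like cells. Their shared β junction was as follows.
TRBV1-TRBJ2-7 junction: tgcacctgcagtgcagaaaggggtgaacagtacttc
These cells were chosen after their cytokine UMIs had been seen.

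Receptors for the 9 cytokines were read in the cells that could respond. Il22ra1, the specific chain of the IL-22 receptor, had 3 UMIs in all epithelial cells, while its partner Il10rb stood at 71.5 CPM. Il4ra, a chain shared by the IL-4 and IL-13 receptors, was higher in ORFTOC epithelial cells, at 61.6 against 26.7 CPM (ratio 2.31, 2.04 to 2.62), and its partner Il13ra1 stood at 62.6 CPM over both pools. For the IL-17 receptor, Il17rc had a ratio of 1.71 (1.43 to 2.05) and Il17ra one of 1.25 (1.01 to 1.56). Csf2ra and Csf2rb were highest in macrophage-like cells, at 256.6 and 249.8 CPM, and Egfr, through which amphiregulin acts, stood at 77.5 CPM in epithelial cells. Of the 15 receptor genes, 12 were tested in epithelial cells, and 1 (Il4ra) was at least 2-fold higher and none lower in ORFTOC, where 6.22% of 16148 genes were higher and 8.29% lower. Epithelial sums ran over subsets whose shares differ between the pools, so these ratios do not separate the subsets from the levels within them.

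Signals that induce the cytokines came from different cells. Il7, the growth factor of these lymphocytes, was epithelial, at 205.2 CPM for ORFTOC against 150.7 for FTOC (ratio 1.36, 1.29 to 1.44). Il33 was mesenchymal, at 198.5 CPM, with a ratio of 0.880 (0.757 to 1.03). Il1b was in macrophage-like cells, at 350.6 CPM, as was Il18 at 55.7 CPM. Il25, made by tuft cells, had 26 UMIs in ORFTOC and 4 in FTOC epithelial cells (ratio 4.69, 1.63 to 18.5). A tuft-like epithelial set led by Gnat3, Gng13 and Lrmp had 25 cells, of which 21 were from ORFTOC. Il23a, the specific chain of IL-23, stood at 10.3 CPM in epithelial cells (ratio 0.775, 0.616 to 0.977). As for the receptors, the epithelial ratios of Il7, Il25 and Il23a do not separate the subsets from the levels within them. On the receiving side, ILC3-like cells had more Il18r1 in ORFTOC (1.97, 1.56 to 2.53) and more Il7r (1.5, 1.37 to 1.65), while Il23r (1.25, 0.980 to 1.61) had an interval that held 1. In ILC2-like cells Il17rb, the IL-25 receptor, had a ratio of 3.11 (1.40 to 8.60) on 6 FTOC UMIs.

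Genes known to answer these cytokines in epithelium went both ways. Of 14 genes, 13 were tested in epithelial cells, 5 were at least 2-fold higher in ORFTOC (Ccl11, Lcn2, Saa3, Saa1 and Postn) and 1 was lower (S100a8), where 6.22% of 16148 genes were higher and 8.29% lower. Ccl11, the eosinophil chemokine induced by IL-4 and IL-13, reached 270.2 CPM in the ORFTOC pool against 16.1 in the FTOC pool (ratio 16.8, 14.6 to 19.4). The antimicrobial gene Lcn2, induced by IL-17 and IL-22, stood at 2742 and 589.5 CPM (ratio 4.65), and the acute phase genes Saa3 and Saa1 had ratios of 6.58 (5.66 to 7.69) and 2.81 (2.31 to 3.44). Postn had a ratio of 2.4 (1.11 to 5.76) on 39 UMIs, and S100a8, which codes for a calprotectin subunit, one of 0.453 (0.386 to 0.531). Reg3g, a target of IL-22, had a ratio of 0.688 (0.668 to 0.707), and the interferon γ targets Cxcl9 and Cxcl10 had ratios of 0.703 and 0.628. In mesenchymal cells Ccl11 was lower in ORFTOC (0.584, 0.528 to 0.647). Several other signals induce each of these genes, and a link to the cytokines was not tested. The epithelial ratios here also run over subsets whose shares differ between the pools.

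Some epithelial cells held more UMIs of Csf2, Il13 and Areg than the ambient profile predicts. Csf2 had 297 UMIs in 33 epithelial cells, of which 23 cells with 256 UMIs were in a set led by Bpifa1, Hp and Sftpd. Over all epithelial cells Csf2 was higher in ORFTOC, at 15.3 against 2.57 CPM (ratio 5.97, 4.13 to 8.91), and the ambient profile predicted 7.66 UMIs. Of the 469 cells of that set 350 were from ORFTOC, so the ratio does not separate the share of the set from the level within it. Il13 had 119 UMIs in 28 epithelial cells, and 24 of these cells, with 77 UMIs, were among the 77 cells of a set led by Calcb, Insm1 and Aire. Aire, the regulator that lets medullary epithelium transcribe tissue-restricted genes, was detected in 82.1% of the Il13-positive and 4.44% of the other epithelial cells. Areg had 114 UMIs in 19 epithelial cells, 61 of them in 1 ORFTOC cell, without which its ratio of 2.32 was 0.696 (0.39 to 1.24). The blood cell gene Ptprc was detected in 24.2% of Csf2-positive, 17.9% of Il13-positive and 31.6% of Areg-positive epithelial cells, against 8.29 to 8.41% of the others, and its part in these values was not tested.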

How the data were processed

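Gene expression, T cell receptor and hashtag libraries of 1 lane were analysed. The authors aligned reads to the mouse genome mm10 with Cell Ranger (6.1.2 in the submitters' processing notes; the matrix header names another version) and deposited unfiltered UMI counts and contig lists. Cells with at least 600 genes and 0.4 to 10% mitochondrial UMIs were kept. Hashtags were assigned with HTODemux (Seurat 5.3.0, R 4.3.3), and 591 within-pool doublets were removed by a neighbour rule. Counts were normalised with SCTransform (0.4.2), and 18 principal components computed without the 9 members were clustered (resolution 0.4, and 1 for immune cells). Clusters took the class with the highest marker score if at least 3 markers were detected and the next class lay at least 0.4 lower; this margin and the CD3 limit of 300 CPM for natural killer names were set after the clusters had been seen. UMIs were summed per class and pool (Python 3.11.15, scipy 1.17.1), with exact Poisson intervals for levels, exact conditional binomial intervals for ratios (counts under 3 set to 3) and Clopper-Pearson intervals for shares. Upper limits for counts of 0 rest on 3 counts. The 2-fold calls and the ratio intervals were tested on simulated Poisson counts, which lack the unevenness between cells seen here. The other steps were not tested in this way. All members were named in every class, and per member with at least 100 immune UMIs the genes most like it, of which the first 2 or 3 are given; list genes are examples. The members and lists were chosen with earlier results of these data known. The values of 1 listed gene are not reported here.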

Additional observations from a re-analysis of the deposited data

Results flagged for a closer look

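Some member UMIs lay in cells that entered no comparison. In the 672 cells without an assigned hashtag, Il13 had 41 UMIs in 8 cells, Il17a had 5 UMIs in 5 cells and Il22 had 4 UMIs in 2 cells. Among the 590 doublets between pools, 90 cells held a member, with 197 Il13 UMIs in 30 cells, 113 Areg UMIs in 13 cells and 108 Il22 UMIs in 20 cells. Among all assembled contigs, including those outside the filtered list, 148 belonged to the δ chain locus. None of these was called productive, and 2 came from γδ-like cells.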

How the results depend on the processing

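No paired analysis was possible because each pool was a single sample, and no replicate could be left out. The alternatives kept the members among the clustering features, used log-normalised counts, at least 1000 genes per cell or within-pool doublets kept, subtracted ambient UMIs, weighted cells equally or replaced clusters by gates. Of 28 shares of UMIs held by the leading class, 18 moved by less than their interval. The others were 73.8% for Ifng and 90.2% for Il22 with at least 1000 genes, 95.9% for Il13 with ambient UMIs subtracted, 98.2% (Il13), 87.0% (Il17a) and 94.8% (Il22) with equal weights, and 4.92% (Ifng), 52.0% (Il13), 57.2% (Il17a) and 84.7% (Il22) with gates. Of 43 log2 ratios 35 moved by less than their interval. With equal weights they were 0.95 for Il13, -1.54 for Il17a and 0.16 for Il22, and with gates 4.11 for Il13 and -0.02 for Il22, which changed sign. The ILC gate joins ILC2-like and ILC3-like cells, so its ratios do not stand for either class alone. In alternatives chosen after seeing the data, leaving out the richest cell of a pool gave 1.85 for Il13 (FTOC cell) and -3.08 for Il17a (ORFTOC cell), and cells with Xist and without Y-linked transcripts gave 0.68 for Il22. Among the other members, leaving out the richest cell turned the log2 ratio to 0.80 for Csf2 in ILC2-like cells and to 0.41 for Csf2 in the Xcl1 cluster (FTOC cell), and to -0.52 for Areg in epithelial cells (ORFTOC cell). The cause of these moves was not tested, except that leaving out a cell removes its UMIs. All 18 co-detection shares and all 27 shares of TRB-positive cells moved by less than their interval.

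Thinning to 1000 UMIs lowered the share of positive cells, as fewer UMIs were read, to 1.85% (FTOC) and 0.602% (ORFTOC) for Ifng in the Xcl1 cluster, 35.9% for Il13 in ORFTOC ILC2-like cells, 6.15% for Il17a in ORFTOC γδ-like cells, and 23% (FTOC) and 24.3% (ORFTOC) for Il22 in ILC3-like cells. With at least 50 UMIs per gene, the percentage of genes past 2-fold, higher and lower in ORFTOC, was 10.1% and 1.74% in ILC2-like cells, 1.54% and 0.979% in ILC3-like cells, 0.634% and 0.841% in the Xcl1 cluster, and 1.04% and 3.07% in γδ-like cells. In epithelial cells the lower share was 4.31%. Depth limited Il5 and Ifng most, with 19 and 61 immune UMIs, and the FTOC values of the ILC2-like cluster, with 19 cells.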
